A study of Homo sapiens with 3 samples.

Results

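The effect of sunitinib on gene expression was examined in the human renal carcinoma cell line TK-10 by comparing the array of cells given 10 μM sunitinib for 48 h with the array of cells given 0.1% DMSO as vehicle for 48 h. These are 2 of the 3 arrays of the study, with 1 array per condition. Both cultures were grown in DMEM with antibiotics and fetal bovine serum at 10%, to which zinc sulfate (16.7 μM), troglitazone (10 μM) and nicotinamide (10 mM) had been added, so the vehicle cells also received these agents. The remaining array is labelled as cells given cordyceps at 750 μg/ml, and its values are given beside the others, with no ratio or count of genes reported from them. On that array 833 spots lay in areas where neighbouring spots were shifted together against vehicle, as judged by ratios of single spots. The sunitinib array had 332 spots in such areas, which touched 89 of the genes compared. No replicate check was possible: no test across arrays, p-value or replicate error can be given, and the drug, the culture, the RNA preparation and the array itself cannot be told apart.

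Sunitinib inhibits receptor tyrosine kinases, chiefly the receptors for vascular endothelial growth factor (VEGF) and platelet-derived growth factor (PDGF), KIT, FLT3, CSF1R and RET, and is used against clear cell renal carcinoma. It is a weak base that collects in lysosomes. Cells pass from growth signals to division through cyclins and cyclin-dependent kinases, which drive DNA replication and then the late-cycle genes of the mitotic spindle. Renal carcinoma cells also secrete chemokines and interleukins, many of them under the transcription factor NF-κB, and interferon signalling turns on a separate set of antiviral genes through STAT and IRF factors.

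Signal is given throughout as relative signal, the processed intensity of a probe divided by the 75th percentile of all probes on its array, and the log2 ratio is sunitinib over vehicle. This percentile was 164.6 intensity units for vehicle and 78.2 for sunitinib. Probes well above background made up 45.5% of probes for vehicle and 38.3% for sunitinib. Relative signal is not compared between genes, since each probe has its own response. The arrays shared a slide and a scan. Of 22434 genes with a probe named through RefSeq, 14905 were compared, each with a probe well above background on 1 array or both. Where only 1 array was above background, the change is called a bound and written as "at least".

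The cells carried kidney and epithelial markers on both arrays. The renal lineage factors PAX2 and PAX8 gave relative signals of 13.5 and 41.8 with vehicle, and 23.1 and 30.5 with sunitinib. CDH16, a cadherin of kidney tubules, gave 8.14 and 5.78, and the intermediate filament vimentin (VIM) gave 866 and 1365. In all, 5 of 6 matched kidney or renal carcinoma markers and 5 of 6 epithelial markers were above background on both arrays. CA9, which clear cell tumors commonly express, and CDH1 (E-cadherin) were above background on neither. ALB, HBB, MS4A1 and PECAM1, defining markers of liver, red cells, B cells and endothelium, were not detected either.

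On the sunitinib array 966 genes were more than 2-fold higher (6.48% of those compared) and 960 were more than 2-fold lower (6.44%), of which 178 and 204 were past 4-fold. These counts are a description of this pair of arrays, and bounds entered them unevenly. All 241 genes detected on the sunitinib array only were counted as higher, but 215 of the 1659 detected on the vehicle array only as lower. The lowest detected relative signal was 0.235 with sunitinib and 0.111 with vehicle, so an upward bound from the vehicle floor was past 2-fold by the filter itself. Among the 13005 genes detected on both arrays 725 were higher and 745 lower. Among the genes detected on both arrays the central 50% of log2 ratios lay between −0.365 and 0.392. Feature Extraction's own technical error had a median of 0.206 on the log2 scale, and the 1470 genes past 2-fold with both arrays above background all exceeded 1.96 times their error. That error covers the spots of an array and says nothing of the spread between cultures. The genes lower on the sunitinib array were 880 protein-coding genes and 80 of other kinds, and those higher were 760 and 206. Dim genes leaned upward: in the dimmest of 10 equal groups 14.2% were past 2-fold upward and 2.23% downward. The counts of the gene lists below are to be read against the 6.48% of all genes that were higher and the 6.44% that were lower, and they change with the scaling of the arrays.

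**Figure D1:**
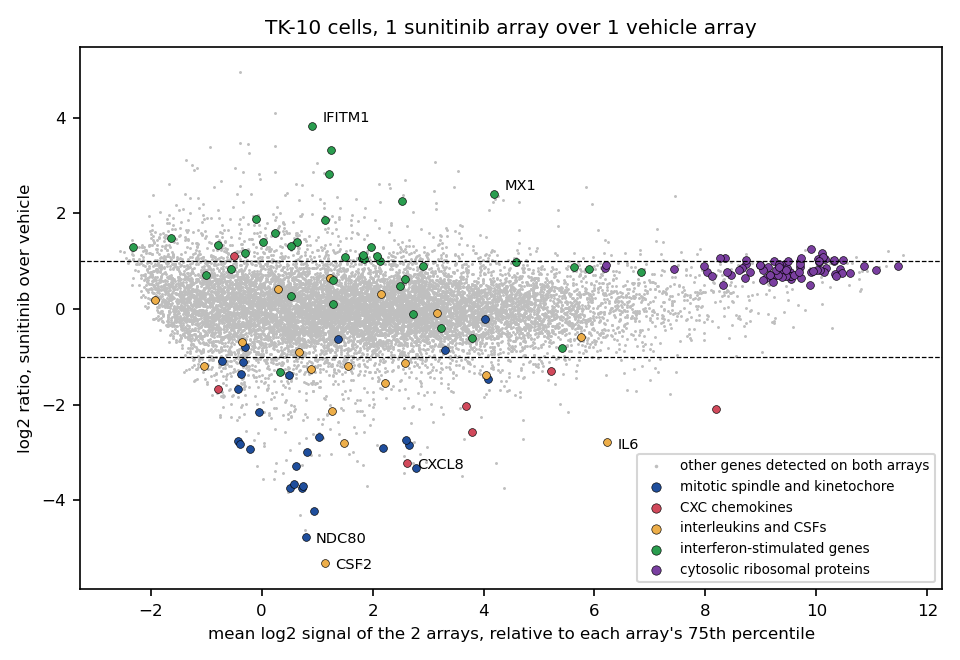
Log2 ratio of sunitinib over vehicle against the mean log2 relative signal of the 2 arrays, for the 13005 genes above background on both. Each point is 1 gene and dashed lines mark 2-fold. Mitotic genes, CXC chemokines and interleukins lie mostly below the lower line (NDC80 at −4.76, CSF2 at −5.30), interferon-stimulated genes mostly above 0 (IFITM1 at 3.81), and ribosomal protein genes form a band near the upper line at high signal, a position that moves with the scaling.

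Genes of the mitotic spindle, kinetochore and cytokinesis formed the list with the lowest median. Of 49 members compared, 41 were more than 2-fold lower (83.7%, against 6.44% of all genes), none was higher, and the median log2 ratio was −2.33 beside 0 for all genes. All 49 had a log2 ratio below 0, from −4.76 for NDC80 to −0.08 for PLK4, which is a bound. For 22 of them the sunitinib signal had reached background, so their changes are lower limits.

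Among them were genes of the kinetochore and the spindle. NDC80, a core subunit of the outer kinetochore that holds microtubules, gave relative signals of 9.03 with vehicle, 12.8 with cordyceps and 0.332 with sunitinib, or 27.2-fold lower than vehicle. KIF2C, a kinesin that takes microtubules apart at centromeres, gave 8.30, 15.2 and 0.441. CENPF, a kinetochore protein, gave 21.9, 33.5 and 2.17, a log2 ratio of −3.33. In each of these 3 genes the sunitinib array stood below both of the others. Among the spindle factors, HMMR had log2 ratios of −3.74, TPX2 of −3.70 and ASPM of −3.74, and the second probe of ASPM gave a bound of −1.19. BIRC5 (survivin), which sits in the chromosomal passenger complex, gave 16.9, 23.3 and 2.35 on the vehicle, cordyceps and sunitinib arrays. AURKA, the spindle pole kinase, fell by 2.76 on the log2 scale, but its spot lay in a small area of the array where neighbouring spots also differed. BUB3, a spindle checkpoint protein that is expressed outside mitosis as well, had a log2 ratio of only −0.21, the least change among members detected on both arrays.

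Regulators of the cycle differed among themselves. CDK1, the kinase of mitotic entry, was at least 14.5-fold lower, with relative signals of 3.47 on vehicle, 7.62 on cordyceps and 0.239 on sunitinib, where it was not well above background. Its partners cyclin B1 (CCNB1) and cyclin B2 (CCNB2) had log2 ratios of −2.14 and −2.42, and a second CCNB1 probe gave −2.30. MKI67, the Ki-67 proliferation antigen, was at least 9.73-fold lower, from a vehicle signal of 2.28. UBE2C, the ubiquitin-conjugating enzyme of the anaphase-promoting complex, gave 13.5 on vehicle and 1.04 on sunitinib, although its spot too lay in an area of shifted signal. Genes of the earlier cycle varied. Cyclin D1 (CCND1) had a log2 ratio of −1.19, whereas its kinases CDK4 and CDK6 had −0.44 and −0.77, within 2-fold. Among the E2F factors, which drive entry into S phase or feed back on it, E2F7 had −1.50, and E2F2 and E2F1 had bounds of −2.88 and −1.50. E2F3 had −0.98, within 2-fold, and E2F8 gave no ratio. Cyclin E2 (CCNE2) had a bound of −1.19. The bounds of E2F1 and CCNE2 fell within 2-fold after normexp background correction.

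Inhibitors of the cyclin-dependent kinases differed in direction. CDKN1C (p57) gave 126 on vehicle, 183 on cordyceps and 286 on sunitinib, 2.28-fold higher. CDKN1A (p21) gave 0.842, 1.59 and 1.68, just short of 2-fold. CDKN1B (p27) had a log2 ratio of 0.33 and CDKN2B (p15) had −0.14. CDKN3, a phosphatase that acts on these kinases, went from 3.01 to 0.671, a log2 ratio of −2.16. Of 44 cycle regulators compared, 18 were lower past 2-fold and CDKN1C alone was higher, with a median of −0.72. With the arrays scaled to the median of all probes the CDKN1C ratio fell below 2-fold.

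DNA replication and repair genes showed a partial fall. Of 47 genes of replication and nucleotide supply, 12 were lower and 1 higher, and the median was −0.70. CDC45, part of the helicase that opens the origin, gave 5.24, 4.84 and 0.371 on vehicle, cordyceps and sunitinib, or 14.1-fold lower than vehicle. TK1, the S-phase thymidine kinase, gave 67.5, 81.0 and 10.2. The helicase subunits MCM6 and MCM4 were lower by smaller amounts (log2 ratios of −1.32 and −1.17), while the sliding clamp PCNA gave 14.1 and 14.7 and a log2 ratio of 0.05, the same on its second probe. CDC6, an origin licensing factor, went the other way as a bound of 1.37, from a vehicle signal below background to 0.287. Among 47 repair and checkpoint genes 12 were lower and none higher. FANCD2 of the Fanconi anemia pathway and BRCA1 of homologous recombination had log2 ratios of −2.79 and −2.26. XPC, the damage sensor of nucleotide excision repair, was the highest member at 0.79.

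Replication-dependent histone genes, which are transcribed in S phase, split widely. Of 55 compared, 14 were lower and 1 was higher, with a median of −0.66. H3C15 had the lowest ratio of all genes measured on both arrays, with 22.1 on vehicle, 30.2 on cordyceps and 0.545 on sunitinib, 40.5-fold lower. H3C2 gave 21.5, 26.5 and 2.92. H2BC12 was higher, at 5.65, 3.67 and 15.4, but its second probe had a log2 ratio of 0.32. Histone genes are near copies of each other, and a probe may read several of them, so the assignment to single members is uncertain.

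**Figure D2:**
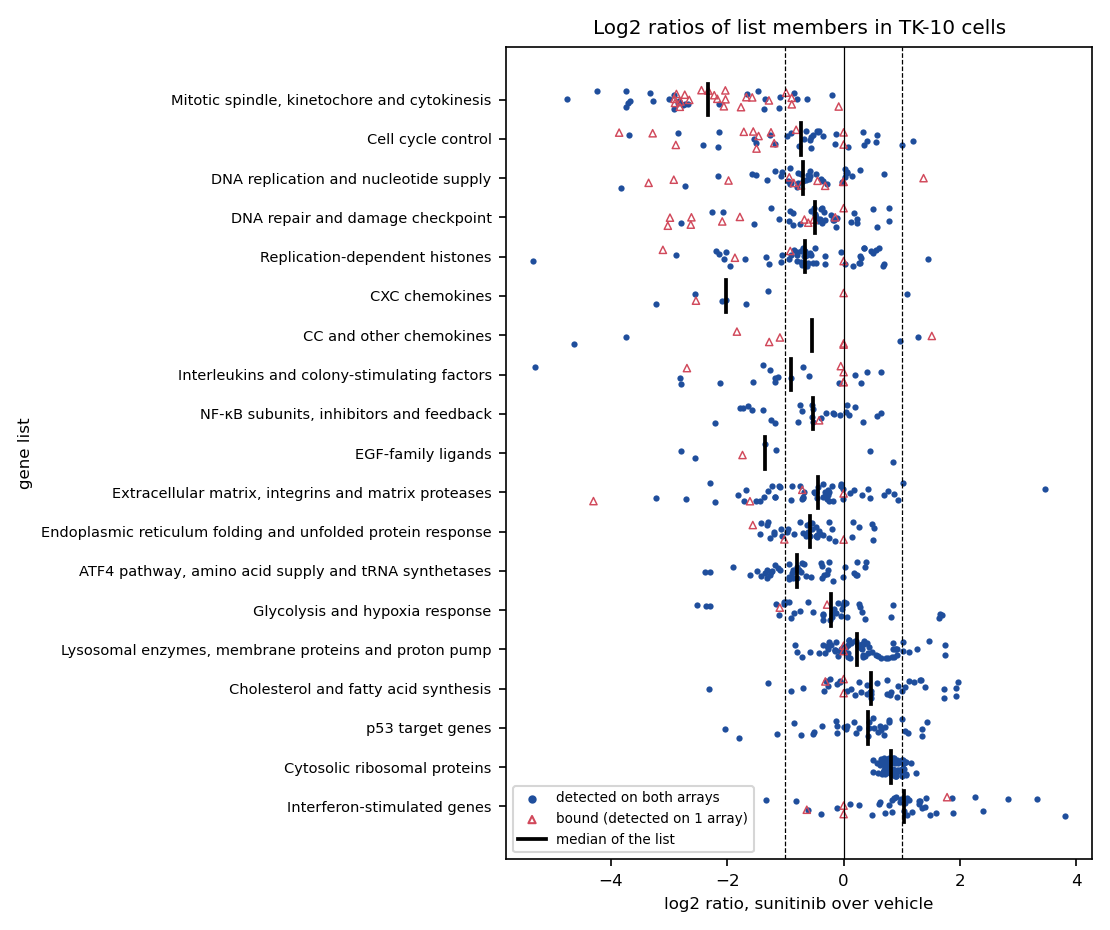
Log2 ratio of sunitinib over vehicle for the members of 19 gene lists, 1 row per list. Blue points are genes above background on both arrays, open triangles are bounds (drawn at 0 where no ratio could be given), black bars are list medians and dashed lines mark 2-fold. The mitotic list lies wholly below 0 with its median at −2.33, and the ribosomal protein list wholly above 0 with its median at 0.82. On unscaled values the ribosomal median was −0.25, where all genes had −1.05.

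The promoters of these genes were searched for motifs, since members of a co-regulated set often share them. The windows run from 250 bases before to 50 bases after the RefSeq start site (GRCh38.p14), and both strands were read. The cell-cycle homology region (CHR), at which the DREAM and B-MYB complexes bind late-cycle promoters, was taken as TTTGAA or TTCGAA. It stood in 29 of the 35 lower mitotic genes with a promoter entry (82.9%) and in 16.6% of all 27305 promoters. The CCAAT box (CCAAT), bound by NF-Y, stood in 74.3% of them and in 35.7% of all promoters. A match in this window is a description and does not show that the site is used. Here and below, motif shares of a list cover only its members past 2-fold. The other members were not counted, so a share may belong to the whole list. CCNB2, CDC20 and NDC80 are shown because they hold the CHR close to the start, where it lies beside CCAAT boxes in the first pair and stands alone in NDC80. Capitals mark the CHR (or its complement TTCAAA) and the CCAAT box. They lie at chr15:59104896-59105195, plus strand, chr1:43358731-43359030, plus strand, and chr18:2571307-2571606, plus strand.
CCNB2: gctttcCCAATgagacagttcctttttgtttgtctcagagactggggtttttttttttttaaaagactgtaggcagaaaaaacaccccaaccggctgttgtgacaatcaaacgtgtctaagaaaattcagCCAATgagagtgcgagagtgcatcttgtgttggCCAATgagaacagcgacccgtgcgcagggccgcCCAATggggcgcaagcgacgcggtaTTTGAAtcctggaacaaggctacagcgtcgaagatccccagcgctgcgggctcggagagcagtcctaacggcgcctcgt
CDC20: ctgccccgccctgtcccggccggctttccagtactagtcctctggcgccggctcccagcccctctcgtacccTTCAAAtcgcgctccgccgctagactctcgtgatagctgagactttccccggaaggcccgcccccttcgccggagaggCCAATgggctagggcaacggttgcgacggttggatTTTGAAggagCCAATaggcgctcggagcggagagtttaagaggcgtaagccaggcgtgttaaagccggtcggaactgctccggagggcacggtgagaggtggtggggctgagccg
NDC80: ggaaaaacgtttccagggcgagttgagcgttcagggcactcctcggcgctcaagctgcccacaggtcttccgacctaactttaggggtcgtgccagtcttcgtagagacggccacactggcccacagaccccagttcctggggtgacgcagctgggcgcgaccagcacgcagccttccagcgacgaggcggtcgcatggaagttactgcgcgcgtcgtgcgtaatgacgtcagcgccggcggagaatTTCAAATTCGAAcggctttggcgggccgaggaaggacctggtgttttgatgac
Counted from the start site, the CHR of CCNB2 begins at −29 and 4 CCAAT boxes precede it, the nearest at −54. In NDC80 the 2 matches adjoin and begin at −3 and 4, so that the first spans the start and the second follows it. CDC20, the activator of the anaphase-promoting complex, has the CHR at −178 and −65 and CCAAT boxes at −100 and −55. Its relative signal was 2.03 on vehicle, 3.81 on cordyceps and 0.460 on sunitinib.

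Other motifs were read in the promoters of lower replication and histone genes. An E2F site (TTTGGCGC, TTTCGCGC, TTCCCGCC or TTTCCCGC) stood in 6 of 10 promoters of lower replication genes and in 5.07% of all promoters. Among the promoters of genes compared the E2F share was 7.78%. Of 14 lower histone genes, 64.3% held a TATA box (TATAAA) and 85.7% a CCAAT box, against 12% and 35.7% of all promoters. H3C15 is shown as the lowest of them, with its CCAAT boxes and TATA box in capitals, at chr1:149852358-149852657, plus strand.
H3C15: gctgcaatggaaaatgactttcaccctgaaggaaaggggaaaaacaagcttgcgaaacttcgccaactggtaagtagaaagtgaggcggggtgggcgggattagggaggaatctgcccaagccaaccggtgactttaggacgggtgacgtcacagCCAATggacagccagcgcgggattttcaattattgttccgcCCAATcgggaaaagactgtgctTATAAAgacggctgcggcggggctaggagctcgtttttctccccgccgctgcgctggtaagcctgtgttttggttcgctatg
Its TATA box begins at −32. For the replication genes only 10 promoter entries were found, so the share rests on few sequences.

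Secreted inflammatory factors formed another group with low ratios. Of 9 CXC chemokines compared, 7 were more than 2-fold lower and 1 was higher, with a median of −2.03. CXCL8 (interleukin-8), which draws in neutrophils, gave 18.7 on vehicle, 22 on cordyceps and 2.0 on sunitinib, or 9.36-fold lower. CXCL1 gave 604, 376 and 142, and CXCL2 gave 33.5, 32.3 and 5.67. CXCL1 and CXCL2 act on the same receptor as CXCL8, and their second probes had log2 ratios of −2.21 and −2.37. CXCL3, CXCL5 and CXCL6 had log2 ratios of −1.68, −1.30 and −2.03. CXCL12, the ligand of CXCR4, was at least 5.81-fold lower on the probe used, while its other probes gave bounds of −0.67 and 0 or were not detected. The membrane-bound CXCL16 was the member that was higher, at 0.483, 0.778 and 1.03. The interferon-induced CXCL9, CXCL10 and CXCL11 were not detected on either array.

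Other chemokines were sparser. CCL2, the monocyte attractant, gave 75.9, 31.4 and 5.65 on the vehicle, cordyceps and sunitinib arrays, and CCL3 gave 8.55, 3.24 and 0.345, so that both sets of values ran in the order vehicle, cordyceps, sunitinib. CCL3 has near-identical copies, and its probe may read several of them. CCL5 was a bound in the other direction (1.52), from a vehicle signal below background to 0.316. Of 10 members compared, 5 were lower and 2 higher, and 14 were not detected.

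Interleukins and colony-stimulating factors leaned the same way, with 11 of 23 lower and none higher. CSF2 (GM-CSF) gave 13.9 on vehicle, 28.1 on cordyceps and 0.351 on sunitinib, 39.5-fold lower. IL6 gave 196, 125 and 28.4, a log2 ratio of −2.79, and its second probe was lower as a bound of −1.48. IL1A and IL1B, the alarm cytokines, had log2 ratios of −2.81 and −2.13. LIF, of the IL6 family, had −1.39. CSF3 (G-CSF) was at least 6.47-fold lower. CSF1, the ligand of the sunitinib target CSF1R, was the highest member at 0.65.

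NF-κB subunits, inhibitors and feedback genes moved less, with 8 of 28 lower, none higher and a median of −0.52. NFKB1 (p105/p50) had a log2 ratio of −1.25, from 16.3 to 6.85, whereas RELA (p65) had 0.58. The feedback inhibitors NFKBIA and TNFAIP3 had −0.75 and −0.53, within 2-fold. The adhesion molecules VCAM1 and ICAM1 had −2.20 and −1.58, and BIRC3 (cIAP2) had −1.73. Epithelial defence products were lower in 7 of 19 (36.8%, against 6.44%) and higher in 1, the haptoglobin gene HP, which had 1.58 at low signal (0.167 to 0.502). DEFB4A (β-defensin 2) was 19.8-fold lower, and LCN2 (lipocalin 2) gave 30.4 on vehicle, 105 on cordyceps and 8.49 on sunitinib. The median signs of the chemokine, interleukin and defence lists turned positive when undetected probes were kept as measured. That run added members detected on neither array, as given with the processing alternatives.

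A κB motif stood in 5 of the 7 lower CXC promoters (71.4%), in 10.8% of all promoters and in 12.8% of those of genes compared. CXCL1 and CXCL2 are shown because they hold the same κB letters at nearly the same distance from the start, with the first matches at −79 and −78. They lie at chr4:73869143-73869442, plus strand, and chr4:74099146-74099445, minus strand, with the κB motif in capitals, where 2 overlapping matches share the run.
CXCL1: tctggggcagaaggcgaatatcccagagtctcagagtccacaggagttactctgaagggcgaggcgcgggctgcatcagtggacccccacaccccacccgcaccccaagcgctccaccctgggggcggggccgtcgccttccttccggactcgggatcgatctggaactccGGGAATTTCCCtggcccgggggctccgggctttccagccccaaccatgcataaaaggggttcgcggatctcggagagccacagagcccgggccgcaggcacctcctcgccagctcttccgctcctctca
CXCL2: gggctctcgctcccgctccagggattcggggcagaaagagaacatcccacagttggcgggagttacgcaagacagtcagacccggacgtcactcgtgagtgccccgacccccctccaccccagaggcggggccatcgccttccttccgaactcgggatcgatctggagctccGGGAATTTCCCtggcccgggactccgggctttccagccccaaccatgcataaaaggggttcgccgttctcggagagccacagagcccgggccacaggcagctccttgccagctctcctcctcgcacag
The pair are neighbouring paralogs. Their log2 ratios were −2.09 and −2.56.

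Interferon-stimulated genes made up the list with the highest median. Of 43 compared, 22 were more than 2-fold higher (51.2%, against 6.48% of all genes) and 1 was lower. The count depended on the processing, with 13 higher under median scaling, 9 after normexp background correction, and 5 higher and 6 lower on the unscaled deposited values. The median log2 ratio was 1.03 beside 0 for all genes, and −0.04 beside −1.05 for all genes on those unscaled values. IFITM1, which blocks entry of enveloped viruses, gave 0.501 on vehicle, 0.266 on cordyceps and 7.04 on sunitinib, 14-fold higher, and its second probe had a log2 ratio of 3.66. IFIT1, a sensor of viral RNA caps, gave 0.755, 0.991 and 7.53. IFI44L gave 0.871, 0.846 and 6.15. MX1, a GTPase that traps viral nucleocapsids, gave 7.90 on vehicle, 10.7 on cordyceps and 41.8 on sunitinib. In these 4 genes the sunitinib array stood above both others.

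The set was not uniform. IFI6 had a log2 ratio of 2.25 and OAS1, a synthase of 2-5A, had 1.48, but ISG15, a ubiquitin-like modifier, had 0.97, from 17.1 to 33.5. Of the factors that drive the set, IRF9 had 1.13 and IRF1 had −1.33, the only member past 2-fold downward. MHC class I genes, many of them interferon-responsive, had a median of 0.29 and no member past 2-fold upward. With the arrays scaled to their medians the MHC median was −0.04, where all genes had −0.31. HLA-B had a log2 ratio of 0.88 (0.80 on the second probe) and B2M had 0.59. The interferon-stimulated response element (ISRE), taken as GAAANNGAA, stood in 13 of the 18 higher genes with a promoter entry (72.2%) and in 8.29% of all promoters. MX1 and IFIT1 are shown because each holds it more than once, with the matches in capitals, at chr21:41420308-41420607, plus strand, and chr10:89392373-89392672, plus strand.
MX1: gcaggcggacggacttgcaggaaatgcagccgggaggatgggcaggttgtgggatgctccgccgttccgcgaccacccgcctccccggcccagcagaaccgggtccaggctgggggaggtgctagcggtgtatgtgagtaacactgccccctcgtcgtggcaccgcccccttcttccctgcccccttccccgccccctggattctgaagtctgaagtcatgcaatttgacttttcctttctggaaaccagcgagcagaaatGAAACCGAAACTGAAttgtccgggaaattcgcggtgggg
IFIT1: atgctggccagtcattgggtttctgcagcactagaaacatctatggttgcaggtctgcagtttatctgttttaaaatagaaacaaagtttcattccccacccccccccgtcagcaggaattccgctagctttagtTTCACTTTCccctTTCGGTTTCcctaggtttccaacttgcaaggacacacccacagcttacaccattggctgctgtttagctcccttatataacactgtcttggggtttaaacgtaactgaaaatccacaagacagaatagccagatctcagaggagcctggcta
In IFIT1 the matches read on the opposite strand, at −115 and −102. In MX1 they overlap and lie just after the start given by RefSeq.

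**Figure D3:**
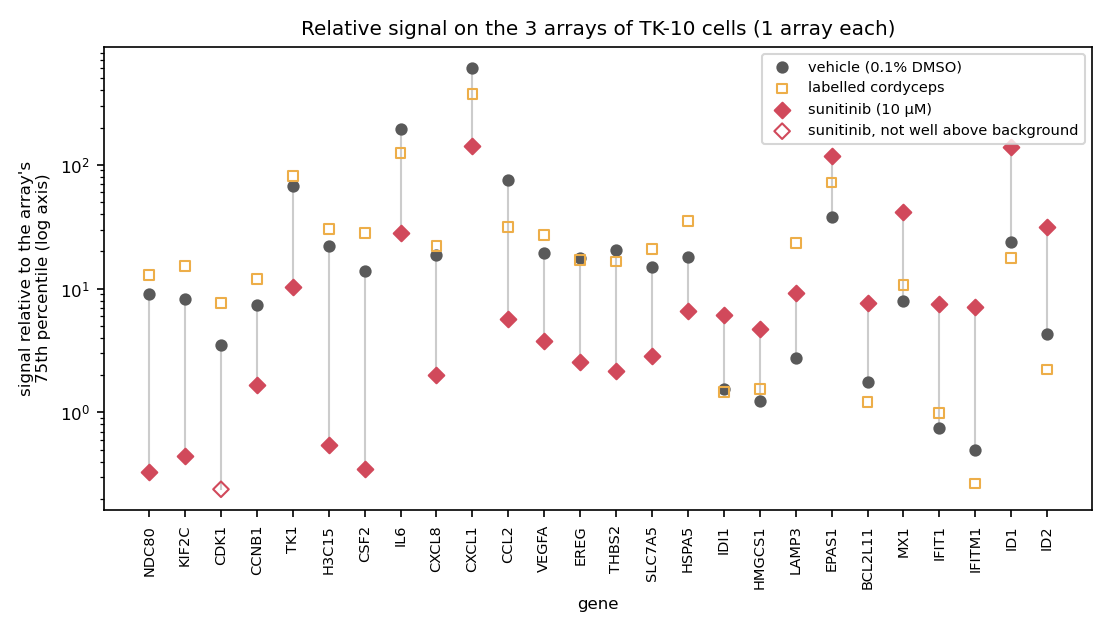
Relative signal (processed intensity over the array's 75th percentile, log axis) of 26 genes on the 3 arrays, 1 array each. Grey lines join vehicle and sunitinib, and the open diamond marks a sunitinib signal not well above background. From NDC80 to HSPA5 the sunitinib array is the lowest of the 3, and in MX1, IFIT1 and IFITM1 it is the highest. LAMP3 is highest on the cordyceps array (23.4). Heights are not comparable between genes.

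Several enzymes of cholesterol synthesis were higher, and a transporter that exports cholesterol was lower. Of 44 genes of cholesterol and fatty acid synthesis, 12 were higher (27.3%, against 6.48%) and 2 lower, with a median of 0.46 that was −0.60 on unscaled values, where all genes had −1.05. With median scaling 6 were higher and 4 lower, and on unscaled values none was higher and 13 were lower. IDI1 (isopentenyl diphosphate isomerase) gave 1.56 on vehicle, 1.45 on cordyceps and 6.11 on sunitinib. HMGCS1, which makes HMG-CoA, gave 1.24, 1.55 and 4.73, and FDFT1 (squalene synthase) gave 6.68, 9.07 and 22.2. MSMO1, DHCR7 and CYP51A1, later in the pathway, had log2 ratios of 1.93, 1.4 and 1.30. SQLE (squalene epoxidase) had 0.57, within 2-fold. ABCA1, the sterol exporter, gave 8.90, 7.17 and 1.79. SREBF1, which encodes the fatty acid regulator SREBP-1, had −1.29 on the probe used and 0.44 on the other, so its direction was not settled. The sterol element (TCACCCCAC or TCACGCCAC) stood in none of the 11 promoters of higher genes and in 0.59% of all promoters. For so rare a motif, 11 promoters are too few for its absence to tell anything of these genes. The CCAAT box stood in 81.8% and 35.7%.

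Lysosomal genes had 7 of 70 members higher and none lower, a share of 10% beside 6.48% of all genes. With median scaling 3 were higher and 3 lower, and on unscaled values none was higher and 24 were lower. Their median was 0.22, and −0.07 with the arrays scaled to their medians, where all genes had −0.31. LAMP3, a lysosomal membrane protein, gave 2.73 on vehicle, 23.4 on cordyceps and 9.18 on sunitinib. CTSF (cathepsin F) gave 22.2, 14.7 and 73.8. The sphingolipid enzymes SMPD1 (acid sphingomyelinase) and ASAH1 (acid ceramidase) had log2 ratios of 1.47 and 1.27. NPC2, the soluble carrier of lysosomal cholesterol, and the sphingolipid activator PSAP both had 1.03, which fell below 2-fold under median scaling and turned to −0.05 on the unscaled values, while the membrane partner NPC1 had −0.01. Of 44 autophagy genes 4 were higher (9.09%, close to the 6.48% of all genes) and none lower, and with median scaling 1 was higher and 1 lower. SQSTM1 (p62), the cargo receptor, gave 62.7, 91.3 and 141, and MAP1LC3B (LC3B) had −0.17. The CLEAR motif (TCACGTGA) stood in 0 of 4 promoters of the higher lysosomal genes and in 1.04% of all. With so few promoters and so rare a motif, this absence tells nothing of these genes.

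Some genes of the endoplasmic reticulum and of amino acid supply were lower. In the folding and unfolded protein response list 11 of 42 were lower and none higher, with a median of −0.58. HSPA5 (BiP), the main chaperone, gave 17.9 on vehicle, 34.9 on cordyceps and 6.61 on sunitinib. HSP90B1 (GRP94) gave 281, 258 and 112, and its second probe had −1.46. XBP1 had −1.20, whereas DDIT3 (CHOP) had −0.36. In the ATF4 list 15 of 46 were lower and none higher, with a median of −0.80. SLC7A5, a carrier of large neutral amino acids, gave 14.8, 20.8 and 2.83. ASNS (asparagine synthetase), PSAT1 of serine synthesis and TRIB3 had −1.26, −1.50 and −1.35. CHAC1, which degrades glutathione, had −1.91, but its second probe gave a bound of 0. ATF4 itself had 0.18 and SLC7A11, the cystine carrier, −0.01.

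Ribosomal protein genes moved as a narrow band. All 75 compared had log2 ratios above 0, from 0.51 for RPS26 to 1.25 for RPL41, with a median of 0.82 and 15 past 2-fold (20%, against 6.48% of all genes). With median scaling, quantile normalization, normexp or no scaling, 0 of the 75 were past 2-fold. The median was 0.49 with the arrays scaled to their medians, 0.22 after quantile normalization and −0.25 on unscaled values. All genes had medians of −0.31, 0 and −1.05 under these scalings. The list median thus stayed above that of all genes, by an amount that depended on the scaling chosen. Ribosome biogenesis genes had 8 of 50 lower and 1 higher, with a median of −0.49. NOP58 and DKC1, proteins of small nucleolar particles, had −1.50 and −1.32. Subunits of oxidative phosphorylation had a median of −0.04 with 1 of 69 past 2-fold in each direction. Constitutive proteasome subunits had −0.37, with 2 of 34 lower.

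The kinases that sunitinib inhibits were mostly not detected in these cells. KDR, FLT1 and FLT4 (VEGF receptors), PDGFRA, KIT and FLT3 were not well above background on either array, along with 6 more of the 41 receptor kinases listed. PDGFRB gave 4.29 on vehicle, 3.77 on cordyceps and 6.80 on sunitinib, within 2-fold. CSF1R was a bound of −0.12. RET was a bound of 1.31, from a vehicle signal below background to 0.382. Of 29 receptors compared, 5 were higher (17.2%, against 6.48%) and 3 lower (10.3%, against 6.44%), which became 4 higher and 7 lower with median scaling. Among the 20 above background on both arrays 1 was higher and 2 were lower. Most of the higher count thus rests on bounds, for genes that were compared only through the array where they were high. ERBB4 was at least 13-fold higher and FGFR2 at least 3.62-fold, both from background on vehicle, and for both genes another probe was not detected. INSR, the insulin receptor, gave 0.339, 0.333 and 1.04. MET, the HGF receptor, gave 87.7, 101 and 43.7, at the edge of 2-fold, and EPHB2 had −1.40. EGFR and AXL had −0.44 and 0.14.

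Among the ligands, those of one family differed in direction. VEGFA gave 19.3, 26.9 and 3.75 on vehicle, cordyceps and sunitinib, 5.15-fold lower, and its second probe had −1.85. VEGFB and the placental growth factor PGF, which bind FLT1, had 1.16 and 1.19. KITLG (stem cell factor) had 1.46, from 0.200 to 0.551. GDNF, a ligand of the RET system, had −2.20, and −2.15 on a second probe. NRP1, a VEGF co-receptor, had −1.67. Of 7 ligands of the EGF family 5 were lower. EREG (epiregulin) gave 17.6, 17.1 and 2.55, AREG (amphiregulin) had −2.55 and HBEGF was at least 3.34-fold lower, while TGFA had 0.85.

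Early response genes below these receptors went both ways. FOSL1 (FRA-1) gave 5.94 on vehicle, 18 on cordyceps and 1.15 on sunitinib. JUN and MYC had −1.66 and −1.54, and ETV5, an output of ERK signalling, had −1.47. EGR1 was higher, at 1.37, 2.10 and 5.02, and JUNB had 1.55. DUSP6, the ERK phosphatase, had −0.86. Of 35 compared, 8 were lower and 3 higher. ID1, ID2 and ID3, inhibitors of helix-loop-helix factors, were all higher, with log2 ratios of 2.55, 2.89 and 2.70. ID2 and ID3 were among the 25 highest genes, and ID1 was picked out after its value was seen. Their relative signals went from 23.8 to 139, from 4.29 to 31.7 and from 2.34 to 15.2, and the second ID2 probe had 3.18. On the cordyceps array these genes gave 17.7, 2.22 and 1.2.

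Hypoxia and metabolic genes were mixed. HK2 (hexokinase 2) had −2.52. EPAS1, which encodes HIF-2α, gave 37.8 on vehicle, 71.9 on cordyceps and 118 on sunitinib. NDRG1 and ANGPTL4 had 1.69 and 1.66. Of 40 genes of glycolysis and hypoxia, 8 were lower and 3 higher. Of 27 PPAR targets and genes of fatty acid oxidation, 3 were higher and 1 lower (11.1% and 3.7%, beside 6.48% and 6.44% of all genes), and with median scaling 3 were higher and 5 lower. PDK4, a fasting-response target of PPAR factors, and PPARGC1A, their coactivator, had 1.91 and 1.63, at low signal for PPARGC1A (0.177 to 0.547). The medium of both cultures held troglitazone, an agonist of PPARγ. In the NRF2 list, of iron and antioxidant genes, 5 of 36 were higher and 1 lower. They included GPX3, a secreted glutathione peroxidase of the kidney, at 0.256 on vehicle and 2.78 on sunitinib, and the ferritin chains FTL and FTH1, with 1.68 and 1.08. HMOX1 and NQO1, usual outputs of NRF2, had −0.50 and 0.63, with the HMOX1 spot in an area of shifted signal. Of 19 metallothionein and zinc transport genes 2 were lower and none higher. The zinc-induced metallothioneins MT2A and MT1X had 0.78 and 0.31, with zinc in the medium of both cultures. Heat shock proteins had 3 of 35 lower and 2 higher.

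Apoptosis genes did not move as a family. In the BCL2 family 2 of 20 were higher and 2 lower, with a median of 0. BCL2L11 (BIM), a killer protein of the BH3-only class, gave 1.76 on vehicle, 1.21 on cordyceps and 7.60 on sunitinib, and its other probes had 1.08 and 1.91. BMF, of the same class, had 1.30 with 1.04 on another probe. BIK and PMAIP1 (NOXA), also BH3-only, were lower, with −2.71 and −2.05. The survival genes MCL1 and BCL2L1 had −0.08 and 0.26. Death receptor genes and caspases had 6 of 36 lower and 1 higher. The decoy receptor TNFRSF11B (osteoprotegerin) gave 58.6, 15.9 and 11.6. CFLAR, which encodes c-FLIP, had 0.26 on the probe used and −1.20, −0.88 and −0.61 on its others, so no direction was settled. In the GADD45 and JNK list 4 of 24 were lower and none higher. GADD45A had −1.79 and GADD45G was at least 4.85-fold lower, whereas GADD45B had 0.65 and MAP2K7 (MKK7) had 0.35. Targets of p53 had 5 of 35 higher and 3 lower (14.3% and 8.57%, beside 6.48% and 6.44% of all genes), and with median scaling 3 were higher and 5 lower. CCNG1 and TP53INP1 had 1.35 and 1.34, with 0.96 and 0.87 on their second probes, and the TP53INP1 spot lay in an area of shifted signal. MDM2 had −0.11, with 0.61 and 0.40 on its other probes. The median of the p53 list was 0.43, and it became −0.65 on the unscaled values, where all genes had −1.05.

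Matrix and adhesion genes were lower in 18 of 60 (30%, against 6.44% of all genes) and higher in 2, with a median of −0.44. MMP7 (matrilysin) was at least 19.7-fold lower, from a vehicle signal of 4.62. THBS2 gave 20.4 on vehicle, 16.5 on cordyceps and 2.18 on sunitinib. COL1A1 gave 32.2, 7.75 and 4.92, and FN1 (fibronectin) gave 38.8, 14.1 and 11.8. PLAUR, the urokinase receptor, had −1.82. SMOC1, a basement membrane protein, was higher with 3.46, and 1.99 on its other probe. COL1A1, DCN (decorin) and LUM (lumican) are also fibroblast markers. Of 7 such fibroblast and muscle markers, 5 were detected with vehicle and 4 with sunitinib, and their summed relative signal was 46.4 and 21.1. COL3A1 and MYH11 were detected on neither, while DES and PDGFRB had 1.45 and 0.66. Of 15 genes compared in the wider list of markers of other cell types, 4 were lower and 3 higher. The leukocyte marker PTPRC had 2.39 at low signal (0.112 to 0.585), with its other probes at a bound of 0 or not detected, and CD14 had −1.50, from 4.21 to 1.48. The summed relative signal of the 4 leukocyte markers was 4.44 with vehicle and 2.39 with sunitinib, most of it from CD14, and CD3E and MS4A1 were detected on neither array. DCN had −3.43, although its second probe gave a bound of 0. Whether a share of such cells moved with the matrix genes was not tested, and in bulk RNA fewer cells of a type and less RNA per cell cannot be told apart.

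Kidney genes were lower in 5 of 31 (16.1%, against 6.44% of all genes) and higher in 1 (3.23%, against 6.48%), with a median of −0.17. The higher member was a bound, and 19 more genes of the list were not detected on either array. FXYD2, a subunit modulator of the sodium pump, gave 2.38, 0.667 and 0.508 on vehicle, cordyceps and sunitinib. HAVCR1 (KIM-1), a tubular injury protein, had −1.77, CYP24A1, which inactivates vitamin D, had −1.75 and DPP4, a brush border peptidase, had −1.66. Drug carriers were lower in 7 of 22 and higher in none. SLCO4A1 was 9.67-fold lower, and ABCB1 (P-glycoprotein), which exports many kinase inhibitors, had −1.0, with −2.10 on its second probe.

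Some of the highest single ratios rested on 1 probe. Genes of prostaglandin synthesis and receptors were lower in 4 of 19 and higher in 2. PTGFR, the prostaglandin F receptor, was the highest gene measured on both arrays, with 0.136 on vehicle and 4.24 on sunitinib, but its other 2 probes were not detected. TIRAP, an adaptor of Toll-like receptors, was at least 139-fold higher on 1 probe, whereas of its other probes 1 gave a bound of 0 and 1 was not detected. TBXA2R, the thromboxane receptor, had 2.29, with 0.15 and 0.52 on its other probes. Among all genes higher past 2-fold with a second probe above background on both arrays, the second probe was past 2-fold in 49 of 125 (39.2%) and had the opposite sign in 15. Among the lower genes it was past 2-fold in 63 of 127 (49.6%), with the opposite sign in 14.

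The lists at either end of the order of medians did not depend on the scaling to the 75th percentile, although their counts did. Scaling to the median of all probes moved the median of all genes by −0.31 and the unscaled values by −1.05, and the lists moved with them. Under each of the 5 scalings the mitotic list stayed lowest and the interferon list stayed highest among the lists plotted, as the plot of medians by scaling shows.

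**Figure D4:**
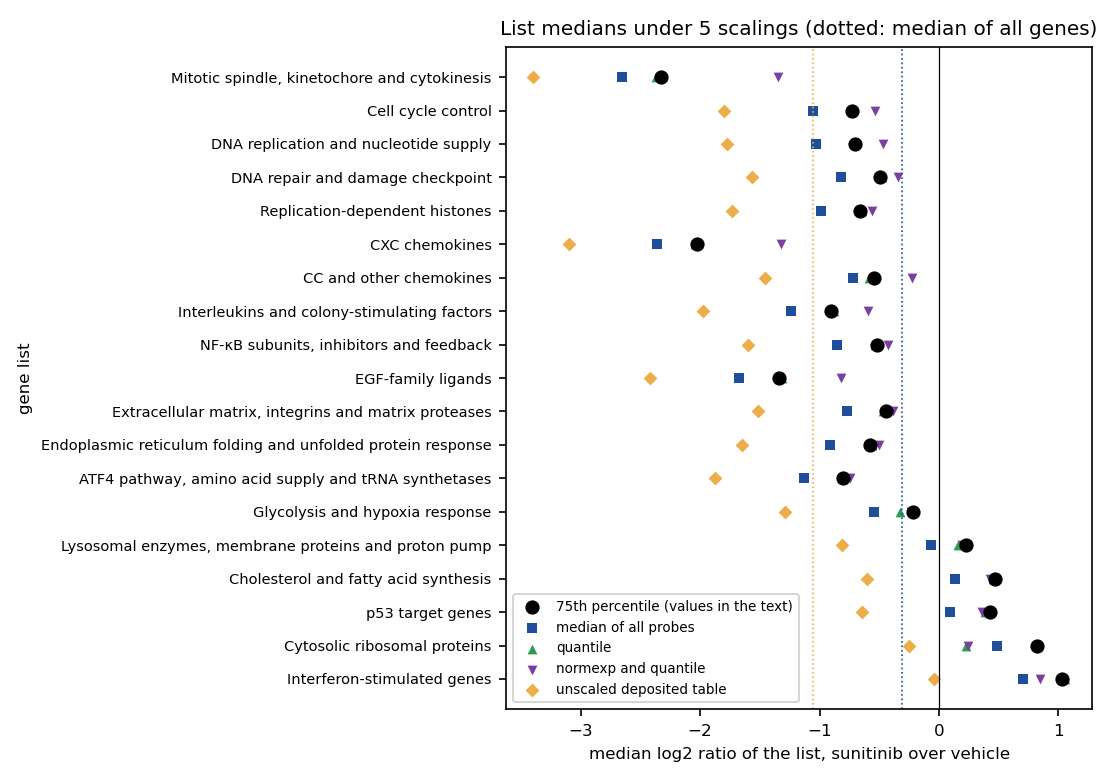
Median log2 ratio of 19 gene lists under 5 scalings of the 2 arrays. Black points are the values in the text, coloured symbols the alternatives, and dotted lines the median of all genes where it moved (−0.31 with median scaling, −1.05 on unscaled values). The mitotic list is lowest and the interferon list highest under each of the 5, and the ribosomal protein list falls from 0.82 to 0.22 after quantile normalization and to −0.25 on unscaled values.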

How the data were processed

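RNA of TK-10 cells was hybridised to single-colour Agilent arrays. The deposited files are per-array outputs of Agilent's Feature Extraction 11.5.1.1 (header build hg19), holding intensity on a linear scale that the authors' software had background-subtracted. The authors also deposited a table of the same processed intensity, unscaled. Control and outlier spots were left out and spots of a probe averaged. The log2 intensity less the array's 75th percentile was compared as sunitinib minus vehicle. Probes were named by RefSeq accession (31097 of 58190), and the probe with the highest mean log2 level stood for its gene. Genes above background on at least 1 array were counted at 2-fold, the limit of the study's methods. Where 1 array was below background, the dim side was set to the lowest detected signal or the probe's own signal, whichever was higher. The study's methods describe another array and no sunitinib sample.

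Genes named are drawn from the 25 highest and lowest ratios, the 10 highest and lowest bounds, members of 39 gene lists past 2-fold, and the extreme members. Members of the kinase, ligand, kidney, other-cell and GADD45 lists are named as well, and so are other members of a list and ID1, picked after their values were seen. The members and lists were chosen with earlier results of these data known. Python 3.11.15, pandas 2.3.3, R 4.3.3 and limma 3.58.1 were used, and the code was tested on simulated data. No spot was saturated, and the number of arrays limits the precision. Alternatives for scaling, background, filter, probes and fold limit were run. Some members of the lists are counted but not reported by name here.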

Additional observations from a re-analysis of the deposited data

Results flagged for a closer look

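Probes without a RefSeq symbol took no part in the counts of genes. Of 7533 such probes detected with vehicle, sunitinib or both, 981 (13%) were more than 2-fold higher on the sunitinib array and 316 (4.19%) were lower. They are flagged because they carry signal outside the genes described. The share that was higher is above the 6.48% among named genes, but the 2 shares are unlike measures. The first counts single probes, and the second counts genes, each by its probe with the highest mean log2 level. No control array bears on this, and the cause was not tested.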

How the results depend on the processing

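With 1 array per condition, the values below show dependence on processing and not on biology. The counts of genes more than 2-fold higher and lower were 966 and 960. They became 528 and 1908 with the arrays scaled to the median of all probes, 158 and 7971 on the unscaled deposited table, 342 and 477 after normexp background correction, 6224 and 1485 with no filter on dim probes, and 349 and 344 at 3-fold. The share of higher genes among those past 2-fold was 50.2% as reported, 21.7% with median scaling, 1.94% unscaled and 80.7% with no filter. Counts under the other alternatives, which were detected probes for the percentile, quantile normalization, both arrays above background, the mean of a gene's probes, outlier spots kept and local areas left out, lay within 1.5 times the reported ones. With no filter, list medians turned to 0.32 for CXC chemokines, 1.00 for the other chemokines, 0.11 for interleukins and colony-stimulating factors and 0.047 for defence products. The median of all genes was then 0.24. Members undetected on both arrays entered these lists, so that 16, 24, 39 and 32 were compared in place of 9, 10, 23 and 19. Of them 7, 6, 12 and 7 were more than 2-fold lower (7, 5, 11 and 7 as reported) and 8, 12, 8 and 12 higher (1, 2, 0 and 1 as reported). On the unscaled table, medians turned to −0.041 for interferon-stimulated genes, −0.60 for cholesterol synthesis, −0.65 for p53 targets and −0.25 for ribosomal proteins. The log2 ratios of NPC2, PSAP and MMP1 turned to −0.047, −0.048 and −0.059. The median of all genes was −1.05 on that table, below each of these values. Of 160 genes named that were past 2-fold, 103 were past it in the same direction under every alternative at that limit in which they were compared. Of the 160, 42 were not on the unscaled table, 29 not after normexp and 15 not with median scaling. Genes not compared under an alternative, such as bounds when both arrays had to be above background, were judged on the rest. CDK1, MKI67, AURKA and UBE2C, for example, were each compared under 9 alternatives and not 10. Scaling to spike-in probes was not run, because 0 of 10 E1A and 2 of 96 ERCC probes were above background on each array. No paired analysis was possible because each condition has 1 array. The dimmest genes limit what can be read, since no probe with a relative signal below 0.235 on the sunitinib array was well above background.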

Other observations

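A few of the lowest genes belong to no list described above. SNAR-D and SNAR-G2, small noncoding RNAs of a family of near-identical copies, gave relative signals of 41.1 and 19.4 on the vehicle array and 3.66 and 1.79 on the sunitinib array, and a probe may read several copies. ASB2, a subunit of a ubiquitin ligase, gave 10.9 and 1.15, a log2 ratio of −3.26. CCAT1, a long noncoding RNA, was at least 18-fold lower, and its second probe gave a bound of −3.51. Among the highest genes, LINC02753, a long noncoding RNA, gave 2.99 and 25.2. PMEL, a melanosome protein, had a log2 ratio of 2.83. PGGT1B and LPCAT2 had 3.37 and 3.04 on the probes used but bounds of −0.58 and −0.29 on their others, and their direction was not settled.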
